A study of Drosophila melanogaster with 32 samples.

Results

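SPR, the receptor of the male sex peptide, was examined together with genes of octopamine signalling and ovulation: Tdc2, Tbh, Octbeta2R, ppk, Mmp2 and Hr39. These 7 genes had 13 probe sets on the array that the probe annotation assigns to a single gene, out of 11982 genes with such a probe set and 18769 probe sets tested, and their probe sets were matched by gene symbol. A probe set is a group of short probes whose combined brightness gives 1 reading of a transcript. SPR, Octbeta2R and Mmp2 had 2 probe sets each, Hr39 had 4, and Tbh, Tdc2 and ppk had 1 each. An eighth gene of the list, the octopamine receptor Oamb, matched no probe set and was not analysed here.

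The RNA came from whole mated females of Drosophila melanogaster, frozen 6 h after mating. The flies descended from 8 replicate populations founded from the LHM base population and kept for 46 generations either under monogamy, with a single mating in each generation (4 populations), or under the standard promiscuous mating protocol (4 populations). Mates came either from the female's own population or from the population with the same number under the other regime, which gave 16 crosses. Each cross was measured on 2 arrays, which the labels describe as biological replicates and place in batch 1 and batch 2. There were therefore 4 groups of 8 arrays: monogamous females with monogamous males, monogamous females with promiscuous males, promiscuous females with monogamous males, and promiscuous females with promiscuous males. The 4 populations per regime limit every comparison between regimes, and no unmated or unselected group was analysed here.

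Sex peptide passes to the female with the ejaculate and acts through SPR, a G protein-coupled receptor, on sensory neurons of the reproductive tract. Its known effects in the fly are lower willingness to remate and more egg laying. Octopamine, the insect counterpart of noradrenaline, is made from tyrosine by way of tyramine and acts on the ovary and oviduct, where it promotes the release of eggs.

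The array values were similar across the 32 arrays, with a median log2 value between 5.41 and 5.50 and correlations between arrays from 0.992 to 0.998. Yolk and fat body markers were among the bright probe sets, with all 4 above background, as were all 8 of the ovary germline and all 7 of the eggshell. So were all 4 of muscle and all 3 of the spermatheca, and 6 of 10 neuron probe sets. Markers of male tissues were dimmer: 1 of 5 testis probe sets and 2 of 8 male accessory gland probe sets lay above background. Background here is the range set by 125 probe sets of 112 gustatory and odorant receptor genes, which few cells of a whole fly express. Their 5th to 95th percentile ran from 2.93 to 4.46 log2, with a median of 3.46.

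Of the 13 probe sets, 6 had a mean over the arrays above that range, 5 lay within it and 2 lay below it. The brightness of a probe set depends on its own probes, so these levels place each reading against background and give no order of the genes. SPR, the receptor itself, read 7.14 on average with probe set 1623478_at, from 5.73 to 7.92 over the 32 arrays. Its other probe set, 1634888_at, averaged 3.04, within the background range, with arrays from 2.73 to 3.53, so that the results for SPR rest on the first. Both values come from the same RNA.

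Tdc2, the neuronal enzyme that makes tyramine from tyrosine, averaged 4.78 and was above the background range on 31 of 32 arrays. Tbh, the enzyme that turns tyramine into octopamine, averaged 4.21 and exceeded the range on 2 arrays. Octbeta2R, an octopamine receptor needed in the oviduct, lay within the range with both probe sets, at 4.18 with 1633087_at and 3.77 with 1641186_at. Of these octopamine genes among the members, Tdc2 was thus the one read above background on nearly every array. Its mean still lay below the brightest receptor probe set of the background, at 5.22.

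The ion channel subunit gene ppk, which marks the sensory neurons on which sex peptide acts, averaged 2.87, below the range. Mmp2, a matrix metalloproteinase that breaks down follicle cell contacts at ovulation, averaged 4.48 with 1623299_at and passed the upper limit on 17 of 32 arrays. Its second probe set, 1637726_at, averaged 2.76, below the range. Hr39, a nuclear receptor needed for the secretory glands of the female tract, was above the range on all 32 arrays with 3 probe sets, which averaged 7.15 (1628556_s_at), 7.24 (1630002_s_at) and 8.16 (1631402_s_at). The fourth, 1632845_at, averaged 3.93 and lay within it. In whole flies, fewer cells of a type and less RNA per cell cannot be told apart, and for a reading at background neither a change nor its absence can be read with confidence.

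**Figure D1:**
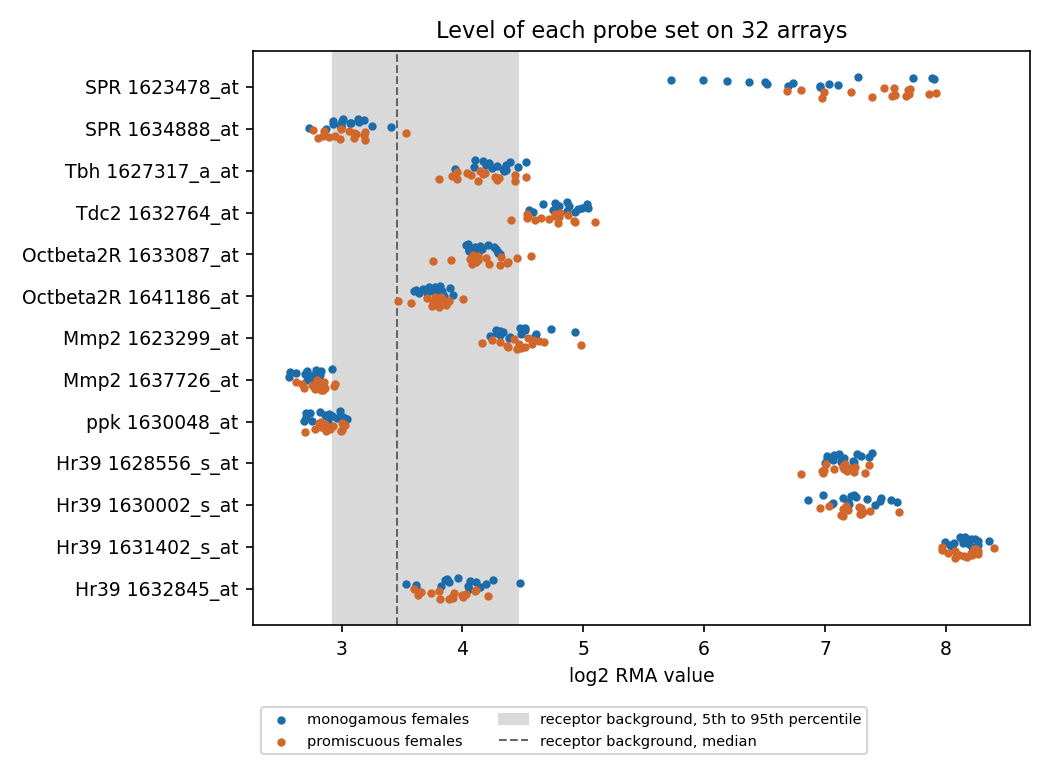
Log2 value of the 13 probe sets on each of the 32 arrays (1 point per array, coloured by the female's regime), with the background range of receptor genes shaded and its median dashed. SPR 1623478_at spans 5.73 to 7.92, more than any other probe set shown, and 3 probe sets of Hr39 lie clear of the background range.

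The first comparison asked whether females of promiscuous populations differed from those of monogamous populations, with each population entered as the mean of its 4 arrays. None of the 13 probe sets passed the test (limma with Benjamini-Hochberg adjustment over all 18769 probe sets, threshold 0.05), where the share called over the whole array was 0.0%. At an unadjusted p under 0.05 there were 1334 probe sets, 1 of them a member. The adjusted p of the members ran from 0.694 to 0.999. The median difference of the 13 probe sets was -0.000229 log2, against 0.00409 over all probe sets.

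For SPR 1623478_at, the 8 arrays of monogamous females with monogamous males read from 5.73 to 7.89, with a median of 6.72. With promiscuous males the monogamous females read from 6.19 to 7.90, with a median of 6.96. Promiscuous females read from 6.69 to 7.92 with monogamous males (median 7.56) and from 6.98 to 7.86 with promiscuous males (median 7.48). The 4 groups overlapped, and the low readings lay among the monogamous females.

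As population means, SPR read 6.85 ± 0.66 (SD, n = 4) under monogamy and 7.42 ± 0.37 (SD, n = 4) under promiscuity. The difference was 0.58 log2 (SE 0.31, 95% interval -0.12 to 1.27), with the promiscuous population higher in 3 of 4 same-numbered comparisons and a limma adjusted p of 0.74. An exact two-sided permutation test of the 8 means gave p = 0.229, where 4 against 4 can reach 0.0286. Leaving out a single population moved the difference between 0.33 (without monogamous population 2) and 0.86 (without monogamous population 1), and none of these fits called it.

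Tbh 1627317_a_at had the smallest p of the members. Its level was 4.26 ± 0.03 (SD, n = 4) under monogamy and 4.16 ± 0.07 (SD, n = 4) under promiscuity, lower by -0.10 log2 (SE 0.04, limma adjusted p = 0.694). The promiscuous population was the lower one in all 4 same-numbered comparisons, and the means of the regimes still overlapped. The numbers are not treated as pairs here, so counts by number, for SPR as well, only describe the means. In batch 1 alone the difference was 0.00 log2, with the promiscuous population lower in 2 of 4 comparisons, and in batch 2 alone it was -0.20, with 3 of 4 lower. Its exact permutation p was 0.0857, the lowest among the members, and its readings lay in the background range.

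Tdc2 differed by -0.09 log2 between regimes (95% interval -0.25 to 0.07). The 2 probe sets of Octbeta2R differed by 0.03 and 0.02, those of Mmp2 by 0.02 (1623299_at) and 0.06 (1637726_at), and ppk by 0.01. Those of Hr39 lay between -0.07 and 0.00. Apart from SPR 1623478_at, the 95% intervals lay between -0.25 (Tdc2) and 0.16 log2 (Octbeta2R 1633087_at). The difference of Hr39 1630002_s_at was 0.12 in batch 1 and -0.16 in batch 2.

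Crosses within a population, in which female and male shared their regime, gave the same picture: 0 of 13 probe sets passed, against 0.0% of the array, with 1178 probe sets at an unadjusted p under 0.05, 1 of them a member. SPR 1623478_at read 6.72 ± 0.72 when both mates were monogamous and 7.43 ± 0.33 when both were promiscuous (SD, n = 4 populations each). The difference of 0.70 log2 (SE 0.31) had a limma adjusted p of 0.795 and an exact permutation p of 0.114. Tdc2 followed with 4.87 ± 0.10 against 4.70 ± 0.18 (SD, n = 4 each), a difference of -0.16 log2. These crosses are part of the arrays in the first comparison and are no separate evidence.

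**Figure D2:**
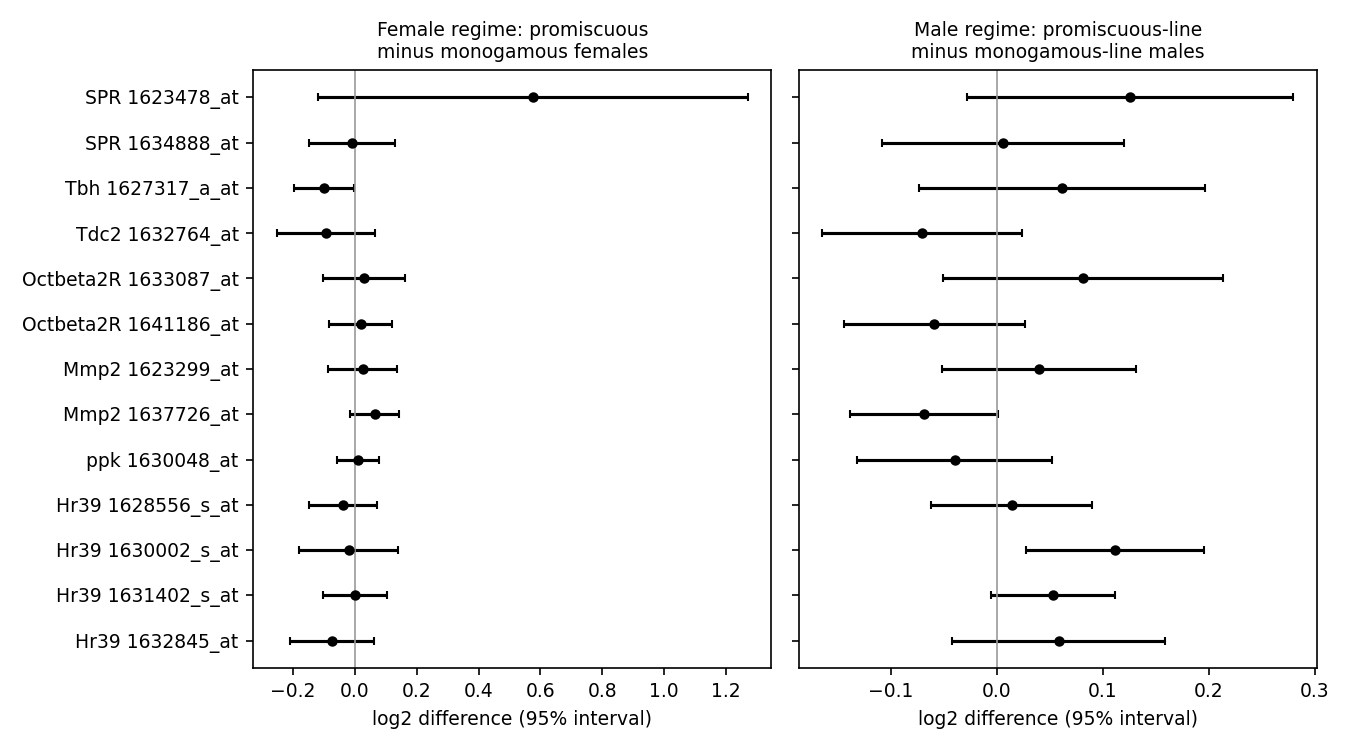
Estimated log2 difference of each probe set with its 95% interval, for the female's regime (left, 8 population means) and the male's regime (right, 8 responses); the horizontal scales differ. SPR 1623478_at has the widest interval on the left, from -0.12 to 1.27, and Hr39 1630002_s_at has an unadjusted interval above 0 on the right.

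The second question was whether females responded to the regime of their mate. For each female population the response was the mean with promiscuous mates (2 arrays) minus that with monogamous mates (2 arrays). Same-numbered populations were mated to the same pair of male populations, so that the 8 responses rest on 4 pairs of male populations. No member passed the test (adjusted p from 0.371 to 0.976), the share over the array being 0.0%, with 2057 probe sets at an unadjusted p under 0.05, 1 of them a member. The median response of the members was 0.04 log2, against a median of -0.00156 over all probe sets. The 13 probe sets include 4 of Hr39, all with a mean response above 0. Probe sets of 1 gene are not independent readings, so this median gives no direction for the gene set.

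Hr39 1630002_s_at had the smallest p. Its responses in the monogamous populations were 0.13, 0.14, 0.24 and 0.11, and in the promiscuous populations 0.19, 0.13, 0.12 and -0.15. All but promiscuous population 4 read higher with promiscuous males, and the mean response was 0.11 log2 (SE 0.04, 95% interval 0.03 to 0.20, limma adjusted p = 0.371). Its value was 0.16 in batch 1 and 0.06 in batch 2. The limma fit and the 13 exact sign-flip tests both treat the 8 responses as independent, although these rest on 4 pairs of male populations. A p from them can therefore be too small. The lowest of the 13 exact sign-flip tests, which can reach 0.00781 with 8 responses, was that of Hr39 1631402_s_at at p = 0.0312. It had 6 of 8 responses above 0 and a mean of 0.05 log2. Within batches that mean was 0.11 in batch 1 and 0.00 in batch 2. The other Hr39 probe sets averaged 0.01 (1628556_s_at) and 0.06 (1632845_at).

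SPR 1623478_at responded by 0.24, 0.48, 0.22 and 0.06 in monogamous populations 1 to 4. In the promiscuous populations its responses were 0.17, 0.36, -0.09 and -0.43. Averaged over the batches, all 4 monogamous populations thus read higher with promiscuous males, while the promiscuous populations split evenly. In batch 1 alone, monogamous population 4 read lower with promiscuous males (6.96 against 7.11). The mean was 0.25 log2 (SE 0.10, limma adjusted p = 0.532) in monogamous females and 0.00 (SE 0.10, adjusted p = 0.997) in promiscuous females. The difference between these means, tested as an interaction, was -0.25 log2 (SE 0.14, limma adjusted p = 0.70). It was -0.06 in batch 1 and -0.44 in batch 2. In batches 1 and 2 the response was 0.16 and 0.34 in monogamous females, and 0.10 and -0.10 in promiscuous females. The 3 spermatheca marker probe sets had a median response of 0.42 log2 in monogamous females, with 2 of 3 at an unadjusted p under 0.05, and -0.11 in promiscuous females. Their median interaction was -0.58 log2 and 0 of 3 passed the adjusted threshold; their part in the SPR values was not tested.

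In these 3 tests no member passed either. Over the array the share called was 0.0% for the response of monogamous females, 0.00533% for that of promiscuous females and 0.00533% for the interaction, which is 1 probe set each in the last 2. Unadjusted p under 0.05 was reached by 1588, 1917 and 1481 probe sets, of which 2, 0 and 0 were members. Tdc2 responded by -0.07 log2 over the 8 populations and Tbh by 0.06, each with an interval that included 0. Octbeta2R moved by 0.08 and -0.06 with its 2 probe sets, Mmp2 by 0.04 and -0.07, and ppk by -0.04. The 0.04 of Mmp2 1623299_at was 0.15 in batch 1 and -0.07 in batch 2.

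The third comparison asked whether populations of the same regime had come to differ from each other. It used a limma F test with 6 numerator degrees of freedom over the 32 arrays, with male regime and batch as terms, and here the arrays are the replicates. SPR 1623478_at was the only member called, 1 of 13 probe sets or 7.69%, against 17.7% of the whole array. The share is below the background, so the result concerns this probe set and not the gene set.

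The 4 arrays of monogamous population 2 read between 5.73 and 6.50 for SPR, with a mean of 6.10. Population 3 of that regime averaged 6.67 (arrays 6.37 to 7.03), population 4 averaged 6.93 (6.69 to 7.11) and population 1 averaged 7.70 (7.27 to 7.90). The arrays of population 1 lay above all those of the other 3 monogamous populations, and neighbours among those 3 overlapped in order of level.

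The promiscuous populations lay closer together. Population 2 was the low one, with a mean of 6.93 and arrays from 6.69 to 7.22. Population 4 averaged 7.40 (6.98 to 7.67), population 1 averaged 7.61 (7.49 to 7.71) and population 3 averaged 7.76 (7.58 to 7.92). Successive populations in this order overlapped in their arrays, while populations 1 and 3 lay wholly above population 2.

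The monogamous means spanned 1.60 log2, or 3.02-fold, and the promiscuous means 0.84 log2, or 1.79-fold. The difference between the 2 arrays of a cross had a median size of 0.247, so the monogamous span was 6.45 times as large. The F value was 22.8 (limma adjusted p = 1.05e-07), and 1.11% of all probe sets had a value at least as large. The median over the array was 1.54 and the 95th percentile 9.48.

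Monogamous population 2 was the lowest of the 8 in each batch, at 6.09 in batch 1 and 6.11 in batch 2. The highest was promiscuous population 3 in batch 1 (7.89) and monogamous population 1 in batch 2 (7.90). Tested within 1 batch, an alternative chosen after the data were seen, the F value was 24.2 in batch 1 (limma adjusted p = 0.000151) and 12.4 in batch 2 (limma adjusted p = 0.00474). Leaving out 1 population at a time gave F values from 13.0 to 36.0, and the call held in all 8 of these fits. Without monogamous population 1 the F value was 13.0, the low end of that range, and without promiscuous population 4 it was 36.0.

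Each regime tested alone, also chosen after the data were seen, called SPR 1623478_at in both. Among monogamous populations F was 35.1 (limma adjusted p = 1.41e-07), where 13.5% of the array was called, and among promiscuous populations F was 10.6 (limma adjusted p = 0.00194), where 9.88% was called. Whether the spread was larger under monogamy than under promiscuity was not tested. No other member was called in either regime.

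**Figure D3:**
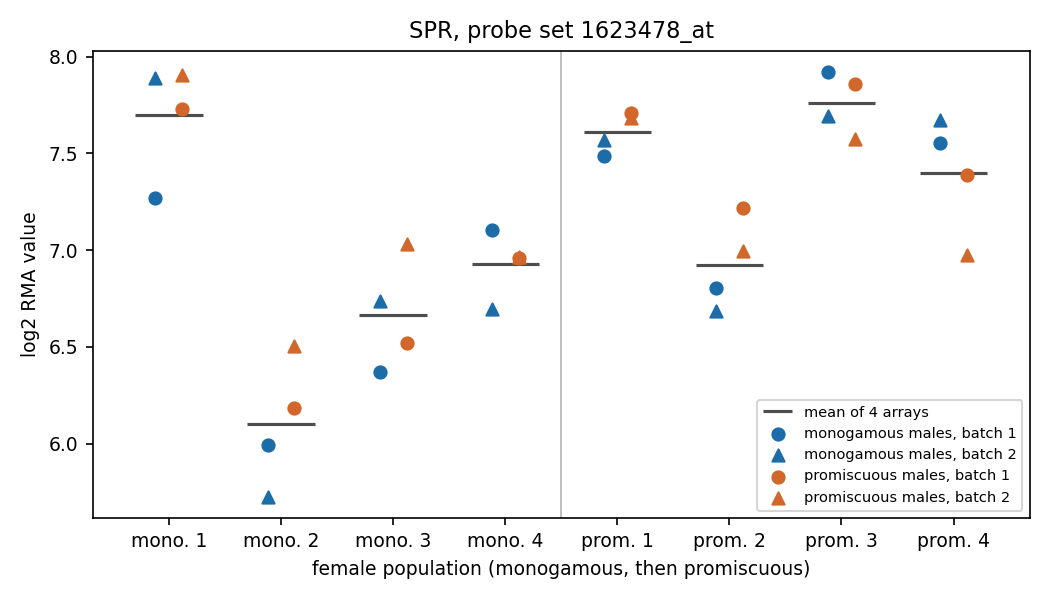
Log2 value of SPR 1623478_at by female population, with 1 point per array, colour for the regime of the male and shape for the batch; the bar is the mean of the 4 arrays. Monogamous population 2 averages 6.10 and monogamous population 1 averages 7.70, while the promiscuous means run from 6.93 to 7.76.

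The second SPR probe set did not follow the first. Probe set 1634888_at had population means of 3.05 ± 0.03 under monogamy and 3.04 ± 0.14 under promiscuity (SD, n = 4 each), with F = 1.54 (limma adjusted p = 0.404), at a level within background. The divergence of SPR therefore rests on a single probe set, and sequence differences between populations under its probes were not tested.

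Cell type markers were set beside the SPR levels. The mean of the 10 neuron probe sets varied little, from 5.38 to 5.42 over the monogamous and from 5.35 to 5.45 over the promiscuous populations. Of these 10, 6 lay above background and 2 were called for divergence, so the mean does not show that each was level. The 3 spermatheca probe sets, of genes expressed in the sperm storage organs, were all called for divergence, with means of 8.50, 7.84, 6.28 and 8.03 in monogamous populations 1 to 4 and 7.76, 8.59, 7.13 and 7.81 in promiscuous populations 1 to 4. Monogamous population 1 was the highest of its regime for both the spermatheca list and SPR. The lowest population was monogamous 3 for the list and monogamous 2 for SPR, and promiscuous population 2 was the highest of its regime for the list and the lowest for SPR. The 4 muscle probe sets, of which 2 were called for divergence, averaged 10.76, 10.58, 10.90 and 10.91 in monogamous populations 1 to 4 and 10.84, 10.73, 10.79 and 11.04 in promiscuous populations 1 to 4. Population 2 of each regime was the lowest for the muscle list, as for SPR. For the 7 eggshell probe sets it was the highest of each regime, at 12.46 under monogamy and 12.41 under promiscuity. The 8 ovary germline probe sets read 9.72 in monogamous population 2, the highest of that regime, and 9.65 in promiscuous population 2. For the 4 yolk and fat body probe sets these populations read 14.13 and 14.00. Of those, 2 were called for divergence, and 14.00 was the lowest promiscuous mean. The part of these cell types in the result was not tested.

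Among the other members, Hr39 1630002_s_at came next by F, at 2.60 (limma adjusted p = 0.145). Its population means ran from 7.18 to 7.37 under monogamy and from 7.11 to 7.40 under promiscuity. Without monogamous population 3 it was called, with F = 4.17 and a limma adjusted p of 0.0441. Tdc2 followed with F = 2.35 (limma adjusted p = 0.187); its means lay within 0.10 log2 of each other under monogamy and 0.34 under promiscuity, from 4.59 in population 3 to 4.94 in population 4. For Tbh the F value was 0.389, which 95.2% of all probe sets reached or passed. The remaining F values lay between 0.637 for ppk and 1.54 for Hr39 1631402_s_at.

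Likeness between genes was taken as the lower of 2 Pearson correlations, over the 16 crosses in batch 1 and over the same 16 crosses in batch 2. The crosses of a population share their females' origin, so these values describe the pattern and carry no p. The genes most like SPR 1623478_at were CG3604 (0.79), CG4199 (0.79) and CG32751 (0.79), all called for divergence. CG32751 had population means of 6.72, 3.75, 5.74 and 6.20 under monogamy and 7.44, 6.36, 8.76 and 7.83 under promiscuity, with monogamous population 2 the lowest, as for SPR. These genes were picked for following SPR over the same crosses. Their calls and the shared low population largely follow from that choice and are no separate evidence. CG4199 and CG32751 lie on the same chromosome as SPR, 277 and 83 genes away in the RefSeq gene order, and CG3604 lies on another.

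Of the genes nearest to SPR, 5 on each side, 8 had a probe set, and 3 of these 8 were called for divergence, where 17.7% of the array was called. Their likeness to SPR ran from -0.52 to 0.55, below that of the 3 genes named. For the Hr39 probe sets above background, the most alike were SMC3 (0.74 with 1628556_s_at), a cohesin subunit, H (0.82 with 1630002_s_at), a repressor of Notch targets, and spdi (0.80 with 1631402_s_at). After them came jigr1 (0.72) and Grip71 (0.71) for 1628556_s_at, and Myo95E (0.82) and krz (0.79) for 1630002_s_at. For 1631402_s_at, CG6928 (0.77) and CG8671 (0.76) followed, the latter lying 2 genes from Hr39 on the chromosome.

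The highest likeness was 0.60 for Tdc2 (CG33233, followed by CG13870 at 0.55 and C15 at 0.54). For Mmp2 1623299_at it was 0.69 (par-1, followed by pHCl-1 at 0.67 and Teh2 at 0.63). Readings within or below background had top values from 0.54 to 0.80. For Tbh these were CG8519 (0.57), Ets65A (0.55) and Galphas (0.47), and for ppk they were ktub (0.56), CG31609 (0.54) and Trax (0.53). For SPR 1634888_at they were Cht5, CheA84a and CG34011 (0.54, 0.54 and 0.53), and for Hr39 1632845_at Ugt316A1, Gasz and mthl1 (0.80, 0.79 and 0.79). For Octbeta2R they were uri, CG4230 and CG14669 (0.55, 0.54 and 0.54) with 1633087_at, and CG5342, mnb and CG5693 (0.71, 0.64 and 0.61) with 1641186_at. For Mmp2 1637726_at they were lncRNA:CR43640, CG15605 and CG12003 (0.60, 0.59 and 0.59).

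The 2 arrays of a cross were compared as batch 2 minus batch 1, and batch cannot be told apart from replicate array. Of the 13 probe sets 6 were called, or 46.2%, against 20.2% of the array. Of these, 3 were higher in batch 2, where 10.7% of the array was called in that direction, and 3 were lower, where it was 9.49%. The 3 higher ones all belong to Hr39 and are not independent readings.

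Mmp2 1623299_at averaged 4.60 in batch 1 and 4.35 in batch 2, a difference of -0.25 log2 (SE 0.05, limma adjusted p = 0.003), and read lower in batch 2 in 15 of 16 crosses. In size this exceeded the span of its population means, 0.12 log2 under monogamy and 0.15 under promiscuity. Its batch means lie on either side of the upper limit of background.

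Hr39 gave readings that moved in opposite directions. Probe set 1628556_s_at fell by 0.18 log2 (SE 0.04, limma adjusted p = 0.00255), from 7.23 to 7.06, and was lower in 15 of 16 crosses. Probe set 1632845_at, within background, rose by 0.27 log2 (SE 0.06, limma adjusted p = 0.00302), from 3.80 to 4.07, in 13 of 16 crosses. Probe set 1631402_s_at rose by 0.12 log2 (SE 0.03, limma adjusted p = 0.0204) in 12 of 16 crosses, from 8.11 to 8.22. Probe set 1630002_s_at rose by 0.15 log2 (SE 0.05, limma adjusted p = 0.0431) in 14 of 16 crosses, from 7.17 to 7.31. Since both directions occur in probe sets of 1 gene, the batch values give no direction for Hr39 itself.

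Of the 6 calls, 3 depended on which population was included. That of Hr39 1630002_s_at was lost in 6 of the 8 fits without 1 population (limma adjusted p from 0.0636 to 0.152) and held only without promiscuous population 3 or 4. That of Hr39 1631402_s_at was lost without monogamous population 4 or promiscuous population 2 (limma adjusted p 0.0701 and 0.0712). The ppk reading, below background, fell by 0.10 log2 (SE 0.03, limma adjusted p = 0.0325) in 12 of 16 crosses. Its call was lost without monogamous population 1 or 4 or promiscuous population 1, 2 or 4 (limma adjusted p from 0.0577 to 0.0956).

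SPR 1623478_at differed by 0.01 log2 between batches (95% interval -0.13 to 0.16), higher in batch 2 in 8 of 16 crosses. Single crosses differed by up to 0.62 log2 between their arrays. Tdc2 differed by -0.05, Tbh by -0.07, Octbeta2R by -0.04 and -0.02, and Mmp2 1637726_at by 0.01, and none of these passed. Beside these, the muscle marker list read lower by -0.13 log2 in batch 2 and the neuron list by -0.05, with 0 of 4 and 0 of 10 probe sets called. Of the 8 ovary germline probe sets 6 were called, 3 higher and 3 lower in batch 2, and the part of these lists in the batch differences was not tested.

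**Figure D4:**
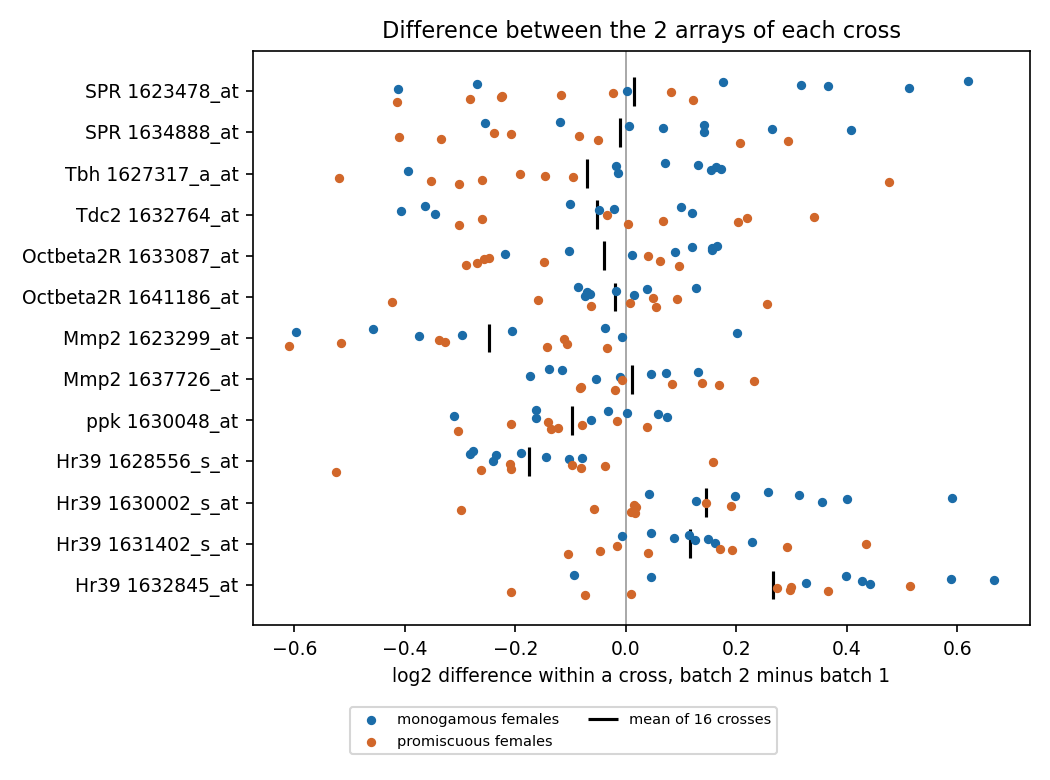
Log2 difference between the 2 arrays of each cross, batch 2 minus batch 1, for the 13 probe sets (1 point per cross, coloured by the female's regime; the bar is the mean of 16 crosses). Mmp2 1623299_at and Hr39 1628556_s_at lie below 0 in 15 of 16 crosses, and Hr39 1632845_at lies above 0 in 13 of 16.

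The rest of the pathway was read from a list of 35 other genes with 55 probe sets: sex peptide ligands and their network, post-mating sensory neurons, octopamine and tyramine synthesis, transport and receptors, and effectors of ovulation. None of the 55 passed in the comparisons of female regime, male regime, their interaction, the male regime within either kind of female, or own-population crosses. The smallest p for the female regime belonged to ftz-f1, a nuclear receptor related to Hr39, at -0.21 log2 (SE 0.06, limma adjusted p = 0.586). It was followed by fru 1641338_at (-0.12) and the seminal protein gene Acp26Aa (-0.06), both at background. For the male regime, EcR, the ecdysone receptor, had 0.14 log2 (SE 0.05, limma adjusted p = 0.371), Octbeta1R, an octopamine receptor, had 0.16, and Vmat 1637393_at, the vesicular monoamine transporter, had 0.11.

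Within monogamous females the smallest p values for the male regime were those of Vmat 1637393_at (0.20 log2), dsx 1640799_at (0.19) and shd 1635002_at (-0.17). Within promiscuous females they were those of fru 1631498_a_at (-0.14), Sems (-0.12) and EcR (0.12). For the interaction they were fru 1631498_a_at (-0.29), shd 1638040_at (-0.18) and Vmat 1637393_at (-0.18). In own-population crosses Octbeta1R differed by 0.23 log2 (SE 0.08, limma adjusted p = 0.702), ftz-f1 by -0.13 and Timp 1632533_at by 0.16.

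Divergence among populations was called for 7 of the 55 probe sets, or 12.7%, below the 17.7% of the array. They were ppk29, a channel subunit gene related to ppk (F = 6.30, limma adjusted p = 0.00306), 2 probe sets of Vmat (F = 5.54 and 3.83), Timp, an inhibitor of metalloproteinases (F = 5.23), Tdc1, a tyrosine decarboxylase outside the nervous system (F = 5.08), Nox, an NADPH oxidase (F = 5.08, at background), and shd, which makes active ecdysone (F = 3.90). The reading of ppk29 was 5.31, 5.72, 5.68 and 5.51 in monogamous populations 1 to 4 and 5.59, 5.61, 5.39 and 5.61 in promiscuous populations 1 to 4. All of these spans were under 0.5 log2, below the 1.60 of SPR.

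These 7 calls each rested in part on single populations. Without monogamous population 1 the adjusted p of ppk29 was 0.10 and that of Nox 0.181. Without monogamous population 4 that of Tdc1 was 0.371, without monogamous population 3 that of Vmat 1628739_at was 0.0552, and without promiscuous population 4 that of Timp was 0.0596. The call of Vmat 1636275_a_at was lost in 4 of the 8 fits that left out a population and that of shd in 3. SPR 1623478_at kept its call in all 8.

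Among monogamous populations alone, 5 of the 55 were called (ppk29, Tdc1, Vmat 1628739_at, Nox and shd 1638040_at), or 9.09%, against 13.5% of the array. Among promiscuous populations alone 3 were, or 5.45%, against 9.88% of the array: Timp and 2 probe sets of dsx, the transcription factor that directs sexual differentiation. Between batches 10 of the 55 differed, or 18.2%, close to the 20.2% of the array. The 7 that were lower in batch 2 were 3 probe sets of fru, a transcription factor of the neurons that control mating, and 1 each of Nox, Octalpha2R, Timp and Vmat. The 3 that were higher were Esp, intr and dsx 1640799_at, from 0.11 to 0.28 log2. The calls of Nox, Octalpha2R, fru 1638111_at and intr held in all 8 fits that left out a population, and the other 6 were lost in 2 to 6 of them.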

How the data were processed

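The authors deposited 1 table of log2 expression values for 32 Affymetrix Drosophila arrays; RMA and affy are named per the submitters' processing notes, with no versions. RMA corrects background, normalizes arrays together and summarises probes to 1 log2 value per probe set. RNA was extracted with Trizol and purified on columns, per the labels' protocols. The deposited values were used without further scaling, and 183 control probe sets were left out of 18952.

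Genes came from the platform's annotation, updated by gene ID to RefSeq (13544 of 13647 single-gene probe sets matched). A further 402 probe sets with several genes were not assigned, among them 1 shared by Octbeta2R and another gene. Tests used limma 3.58.1 in R 4.3.3 (lmFit, eBayes with intensity trend, Benjamini-Hochberg over 18769 probe sets, threshold 0.05), and these fits were tested on simulated data. Exact tests enumerated every arrangement in Python 3.11.15, and the 95% intervals used scipy 1.17.1. Replicates are populations, arrays for divergence, or the 16 differences within crosses for batch. The number of arrays limits the precision.

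Every member was tested in each comparison, and not every value is given. Of the pathway list, the 3 smallest p and any call were named. The 3 genes most like a member were ranked. The members and lists were chosen with earlier results of these data known. Alternatives were batch, scaling, filter, trend, replicate block and leaving out each population.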

Additional observations from a re-analysis of the deposited data

Results flagged for a closer look

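A value was picked out when its gap to the nearest of the other values of its group exceeded Dixon's 95% limit. Of 104 groups of 4 to 8 values, 5 had such a value, where chance gives about 5.2. SPR 1634888_at read 3.41 on the batch 2 array of monogamous population 4 females with monogamous males, above the other 7 arrays of that group (2.93 to 3.14). Octbeta2R 1641186_at read 4.00 on the batch 1 array of promiscuous population 2 females with monogamous males, above the others (3.76 to 3.86). The response of the same probe set to the male regime was -0.25 log2 in promiscuous population 2, below the other 3 promiscuous populations (-0.06 to -0.04). Mmp2 1623299_at averaged 4.60 in promiscuous population 3, above the other promiscuous populations (4.45 to 4.46). Hr39 1630002_s_at read 7.61 on the batch 1 array of promiscuous population 3 females with promiscuous males, above the others (7.14 to 7.31). None of these values belongs to SPR 1623478_at.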

How the results depend on the processing

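No member was called in the 6 comparisons of regime under any alternative (16 for the female and male regime, 15 for the others, leaving out each population included). With the population number as a replicate block, which pairs same-numbered populations, 0 of 13 member probe sets were called in each. Same-numbered populations deviated together by 0.13, 0.07, 0.19 and 0.02 (correlation of population means), and by 0.17, 0.03, -0.04 and 0.01 for the responses, too little to treat the numbers as pairs. The number of members called for divergence was 1 in every alternative except without monogamous population 3, where it was 2 (range over the fits that left out a population, 1 to 2). SPR 1623478_at was called in all 15 alternatives, with adjusted p from 1.83e-08 to 0.00474. The batch count of 6 became 3 under quantile normalization and 3 of 5 remaining probe sets without the dimmest 40%, and ranged from 3 to 6 when a population was left out. Under quantile normalization the adjusted p was 0.0663 for Hr39 1630002_s_at, 0.0722 for Hr39 1631402_s_at and 0.064 for ppk, and under median centring it was 0.0998 for ppk. The causes were not tested. Readings at background limit what can be said of Tbh, Octbeta2R and ppk.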
